A study of Mus musculus with 1152 samples.

Results

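The 8 genes Mrc1, Pf4, Ms4a7, Cd163, Lyve1, Cbr2, F13a1 and Clec12a are markers by which macrophages at the borders of the brain are told from microglia, and they were followed here by name among the 48587 genes of a single-cell count table. The labels call the cells microglia; they were sorted singly into wells from 5xFAD and wild-type (WT) mice, and libraries were made with Smart-seq2, which reads whole transcripts and adds no molecular identifiers. 5xFAD mice carry mutant human transgenes driven in neurons by the Thy1 promoter and form amyloid plaques; the labels give the strain of both genotypes as C57BL/6J and give neither age nor sex. The 6 groups were 5xFAD cerebellum (193 wells from 3 mice), WT cerebellum (162 wells from 4 mice), 5xFAD hippocampus (154 wells from 3 mice), WT hippocampus (182 wells from 4 mice), 5xFAD cortex (183 wells from 4 mice) and WT cortex (167 wells from 4 mice), 1041 kept wells in all. The labels give no treatment, and the regions came from the same mice. Brains had been perfused to clear the blood, and the cells enriched on Percoll and stained for CD11b, CD45, Ly6C, Ly6G and CD206. CD206 is the protein that Mrc1 encodes. The labels do not say which side of the CD206 gate was sorted, so that how far the gate itself set the number of wells with these genes was not tested.

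Macrophages of the brain borders live in the meninges, around vessels and in the choroid plexus, outside the tissue that microglia occupy. Both cell types arise mostly from embryonic precursors and share many genes, and border macrophages are known for scavenger and endocytic receptors that microglia make little of. In turn microglia are known by P2ry12, a purine receptor, Tmem119, a membrane protein, and Sall1, a transcription factor of microglial identity.

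Of the 8 genes, 7 had a promoter entry in RefSeq (GRCm38.p6), and Lyve1 had none. The 250 bases before the start of the 4 genes found in most wells are shown, since these genes were found together in the same wells. The capitals mark GAGGAA or its reverse complement TTCCTC, letters found in many binding sites of PU.1, the transcription factor of the myeloid lineage; this string was chosen after the sequences were seen.
Mrc1: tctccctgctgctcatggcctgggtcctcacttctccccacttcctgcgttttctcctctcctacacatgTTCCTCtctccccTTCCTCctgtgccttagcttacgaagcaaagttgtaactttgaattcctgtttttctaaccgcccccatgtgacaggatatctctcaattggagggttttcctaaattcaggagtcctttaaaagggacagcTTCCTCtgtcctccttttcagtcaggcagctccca
Clec12a: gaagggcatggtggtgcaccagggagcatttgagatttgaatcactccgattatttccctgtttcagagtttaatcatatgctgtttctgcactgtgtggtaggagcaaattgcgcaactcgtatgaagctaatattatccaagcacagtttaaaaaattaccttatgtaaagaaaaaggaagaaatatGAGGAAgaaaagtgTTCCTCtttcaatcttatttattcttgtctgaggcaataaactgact
Ms4a7: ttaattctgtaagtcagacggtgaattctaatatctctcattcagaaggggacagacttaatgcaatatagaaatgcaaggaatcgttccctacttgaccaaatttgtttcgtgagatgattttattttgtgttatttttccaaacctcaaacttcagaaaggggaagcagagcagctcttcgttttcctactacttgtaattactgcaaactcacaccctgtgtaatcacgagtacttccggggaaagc
Pf4: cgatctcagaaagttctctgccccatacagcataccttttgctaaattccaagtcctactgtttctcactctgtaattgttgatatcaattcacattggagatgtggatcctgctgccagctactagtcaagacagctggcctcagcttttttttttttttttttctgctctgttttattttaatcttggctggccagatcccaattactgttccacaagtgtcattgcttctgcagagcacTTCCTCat
The Mrc1 window was chr2:14229164-14229413 on the plus strand, and it held 3 matches, which began 180, 167 and 35 bases before the start. Its last bases, which hold no match, lie inside the gene as GENCODE draws it. The Clec12a window, chr6:129349994-129350243 on the plus strand, held 2 matches, 61 and 47 bases before the start, and this RefSeq start lies inside the gene as GENCODE draws it. In the Pf4 window, chr5:90772185-90772434 on the plus strand, 1 match stood 8 bases before the start. The Ms4a7 window, chr19:11336147-11336396 on the minus strand, held none. Cbr2 and F13a1, not shown, had a match 79 and 66 bases before the start, Cd163 had none, and the further start of Ms4a7 and that of F13a1 had none either. The Cbr2 match lies inside the gene as GENCODE draws it. Searched on both strands, the string was in 5 of the 9 member windows, which belong to 7 genes, against 23.3% of all 32851 promoters (7639) in the same table, so that most promoters holding it belong to other genes. TGCTGA, part of the site of MAF factors, and TATAAA were in no member window, against 16.1% and 12.4% of all promoters. These matches describe letters and show no binding.

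Reads of every member were rare. Of 1041 wells, Mrc1 had at least 1 read in 63, Clec12a in 43, Ms4a7 in 40, Pf4 in 34, F13a1 in 23, Cd163 in 21, Cbr2 in 13 and Lyve1 in 4. The 12 blank wells held 0 reads of each of the 8 genes. Microglia genes, by contrast, were found in nearly all wells: among the 917 wells without a read of any member, P2ry12 was detected in 99.3% and Tmem119 in 99.1%, and Sall1 in 88.0%. The label of the wells as microglia therefore held for most of them by their own genes. Median depth ran from 198492 reads per well in WT cortex to 343580 in 5xFAD cerebellum, and sums over the wells of a mouse and region ran from 5696201 to 26669220 reads. Reads are not independent molecules here, so limits drawn from counts cover counting error only. In such summed RNA, fewer cells with a gene and less of its RNA per cell cannot be told apart, for which reason shares of wells are given beside levels. Each of 3 plates held 2 groups, namely WT hippocampus with WT cortex, 5xFAD cortex with WT cerebellum and 5xFAD cerebellum with 5xFAD hippocampus, and for all other pairs of groups plate and group cannot be told apart.

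Among the receptors, Mrc1 came first in reads and wells. It is the mannose receptor, an endocytic lectin, on chr2:14229392-14332057 of GRCm38, plus strand. Its level in the summed wells of each mouse was 136, 322 and 239 CPM (reads of the gene scaled to the reads in all genes) in 5xFAD cerebellum, and 119.5, 347, 0.557 and 258 CPM in WT cerebellum. It was 5.81, 0.693 and 0 CPM in 5xFAD hippocampus, against 21.3, 13, 185 and 0 CPM in WT hippocampus. In cortex the 5xFAD mice had 33.9, 0.0959, 14.5 and 20.9 CPM and the WT mice 233, 0.124, 19.2 and 1.26 CPM. The 3 5xFAD cerebella were all above the 3 5xFAD hippocampi. WT cerebellum held 3 high mice and 1 near 0, and a single high mouse stood out in WT hippocampus and in WT cortex. Ordered by mean, 5xFAD cerebellum (233 ± 93.1 CPM, SD, n = 3) came before WT cerebellum (181 ± 153, n = 4), WT cortex (63.3 ± 113, n = 4), WT hippocampus (54.8 ± 87.1, n = 4), 5xFAD cortex (17.3 ± 14.1, n = 4) and 5xFAD hippocampus (2.17 ± 3.17, n = 3). The mice of each group overlapped with those of the next group in this order.

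**Figure D1:**
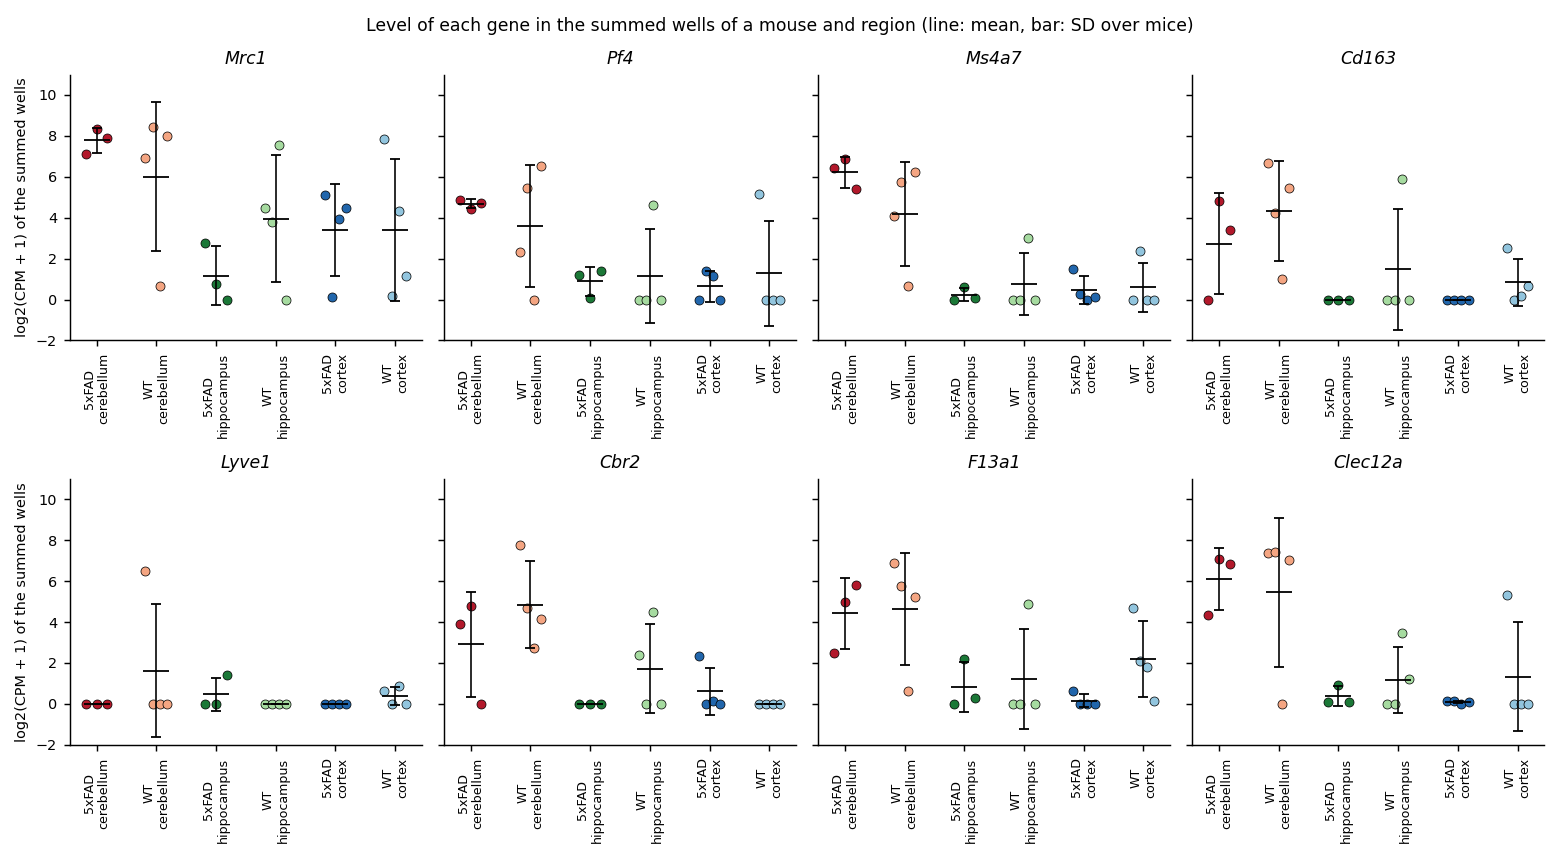
Level of each of the 8 genes in the summed wells, in log2(CPM + 1), 1 point per mouse, with the mean as a line and the SD over mice as a bar, by genotype and region. The cerebellum groups hold the highest points of every gene, and single high mice stand out in WT hippocampus and WT cortex.

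Clec12a, an inhibitory lectin receptor of myeloid cells on chr6:129342691-129365303, plus strand, was the second most often found. Its levels were 19.3, 136 and 114 CPM in 5xFAD cerebellum and 165, 169, 0 and 129 CPM in WT cerebellum. All 3 5xFAD hippocampi were below 1 CPM, with 0.0625, 0.907 and 0.0712 CPM, and the WT hippocampi had 0, 0, 9.89 and 1.32 CPM. In 5xFAD cortex it stayed at 0 to 0.0959 CPM, while WT cortex had 38.6 CPM in mouse 1 and 0 in the other 3. Clec12a reads thus came almost wholly from cerebellum, apart from 1 WT hippocampus and 1 WT cortex.

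Ms4a7, a membrane protein of the MS4A family on chr19:11321039-11336146, minus strand, was also highest in cerebellum. It had 84.7, 116 and 41.1 CPM in 5xFAD cerebellum and 15.7, 53.3, 0.557 and 75.4 CPM in WT cerebellum. No mouse outside the cerebellum passed 7.12 CPM, the value of WT hippocampus mouse 3. The scavenger receptor of haemoglobin and haptoglobin complexes, Cd163, on chr6:124304656-124330527, plus strand, had 0, 26.9 and 9.49 CPM in 5xFAD cerebellum against 100.5, 17.6, 1.00 and 43.2 CPM in WT cerebellum. It had 0 reads in every 5xFAD hippocampus and every 5xFAD cortex. WT hippocampus mouse 3 had 58.0 CPM with the other 3 at 0, and WT cortex had at most 4.74 CPM. Cd163 was thus present in 6 of 7 cerebella, and no group of mice stood clear of the other genotype in the same region. Lyve1, a hyaluronan receptor on chr7:110850607-110863239, minus strand, was found in 4 wells only. A single well of WT cerebellum mouse 1 held 595 of its 627 reads, which gave that mouse 89.8 CPM.

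The secreted proteins and the enzyme showed the same regions. Pf4, the platelet chemokine CXCL4, on chr5:90772435-90773383, plus strand, had 28.3, 20.8 and 25.7 CPM in 5xFAD cerebellum and 4.07, 43.5, 0 and 91.4 CPM in WT cerebellum. In 5xFAD hippocampus it had 1.31, 0.0533 and 1.64 CPM, and in WT hippocampus 23.4 CPM in mouse 3 and 0 in the others. In cortex the 5xFAD mice had at most 1.63 CPM, and WT mouse 1 had 34.2 CPM with the other WT mice at 0. The 3 5xFAD cerebella lay close together for Pf4, whereas the WT cerebella spread from 0 to the highest mouse of the series. F13a1, the A subunit of coagulation factor XIII, a transglutaminase on chr13:36867178-37050244, minus strand, had 4.55, 30.4 and 55.0 CPM in 5xFAD cerebellum and 118, 53.2, 0.557 and 36.6 CPM in WT cerebellum. It had at most 3.63 CPM in 5xFAD hippocampus and 0.543 CPM in 5xFAD cortex, while WT hippocampus mouse 3 had 28.1 and WT cortex mouse 1 had 24.6 CPM. Cbr2, a carbonyl reductase on chr11:120729489-120732114, minus strand, had 14.1, 26.9 and 0 CPM in 5xFAD cerebellum against 219.7, 25.1, 5.57 and 16.9 CPM in WT cerebellum. A single well held 48.4% of all Cbr2 reads. Outside the cerebellum its highest mouse was again WT hippocampus mouse 3, at 21.7 CPM, and both WT cortex and 5xFAD hippocampus were at 0 in every mouse.

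The share of wells with a read gave a similar order of regions with smaller gaps for Mrc1. Mrc1 was found in 9.73 ± 4.25% of wells in 5xFAD cerebellum (SD over 3 mice, 19 wells) and 9.18 ± 6.61% in WT cerebellum (4 mice, 15 wells). In hippocampus it was found in 3.63 ± 3.46% of 5xFAD wells (6 wells) and 2.17 ± 1.78% of WT wells (4 wells), and in cortex in 4.87 ± 3.16% of 5xFAD wells (9 wells) and 6.26 ± 4.95% of WT wells (10 wells). None of 6 comparisons of these shares passed an exact two-sided permutation test over mice, and with so few mice none could have passed after adjustment. Cerebellum against hippocampus in WT gave p = 0.0571 (adjusted 0.171 over the 6) and in 5xFAD p = 0.2 (adjusted 0.4), where the exact test can go no lower than 0.0286 and 0.1. WT hippocampus against WT cortex gave an exact p of 0.0571 (adjusted 0.171), with the lower share in hippocampus. Between genotypes the exact permutation p was 0.914 (adjusted 0.914) in cerebellum, 0.657 (adjusted 0.789) in cortex and 0.571 (adjusted 0.789) in hippocampus. Between genotypes in cerebellum and hippocampus, with 3 against 4 mice, no difference could have passed even before adjustment. After adjustment over the 6, this held for every comparison, even with all mice of the compared groups fully apart. The adjusted values therefore cannot decide whether the shares differ. Depth bears on these shares: with at least 10 reads asked for, Mrc1 was in 8.29% of 5xFAD cerebellar, 8.02% of WT cerebellar, 0.649% of 5xFAD hippocampal, 1.65% of WT hippocampal, 3.83% of 5xFAD cortical and 1.20% of WT cortical wells, pooled over mice. With each well thinned to 50000 reads, 5xFAD hippocampus had Mrc1 in 0 of 135 wells, and the direction between the genotypes turned round in all 3 regions, so no order of the genotypes is read from the share.

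Clec12a, Ms4a7 and Pf4 were found mainly in cerebellar wells. Clec12a was in 10.8 ± 5.13% and 7.02 ± 5.09% of the wells of 5xFAD and WT cerebellum, and in at most 2.54% in the other 4 groups. In mouse 3 of 5xFAD cerebellum, wells with Clec12a as the only member had 823 to 1892 CPM, apart from 1 at 22.5 CPM. The P2ry12 level was 0 to 3.67 CPM in the former and 3837 CPM in the latter, with H2-Aa at 0 in all. Of the 193 wells of 5xFAD cerebellum, 6 held at least 3 markers of another cell type. Of the 19 wells there with 1 to 3 members, 5 held several neutrophil genes and 5 held several monocyte genes. Of the 13 wells with at least 4 members, 0 held several of either. The summed neutrophil genes reached 309746 CPM in the former wells and 444 CPM in the latter. Whether the 6 wells, or those with neutrophil or monocyte genes, were the Clec12a wells was not tested. The Clec12a share without such wells was not tested either. Ms4a7 was in 8.86 ± 1.15% of 5xFAD and 7.46 ± 3.44% of WT cerebellar wells, with at most 2.45% elsewhere, and Pf4 in 8.42 ± 2.99% and 6.15 ± 4.48%, with at most 2.69% elsewhere. In cortex the mean shares of these 3 genes ran from 0.581% to 2.17%, beside 4.87% and 6.26% for Mrc1 in 5xFAD and WT cortex; this difference between genes was not tested. Cd163 was in 6 wells of 5xFAD cerebellum and 11 of WT cerebellum, in 0 of 154 wells of 5xFAD hippocampus, which allows a share of up to 1.95%, and in 0 of 183 wells of 5xFAD cortex, which allows up to 1.64%. F13a1 was in 5 wells of 5xFAD and 9 of WT cerebellum, and Cbr2 in 2 and 6. Outside the cerebellum, F13a1 was in up to 4 wells of a group (WT cortex) and Cbr2 in up to 3 (WT hippocampus), so their shares in 5xFAD cerebellum, 2.49% and 1.10%, were close to those of WT cortex for F13a1, 2.41%, and of 5xFAD cortex for Cbr2, 1.08%.

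**Figure D2:**
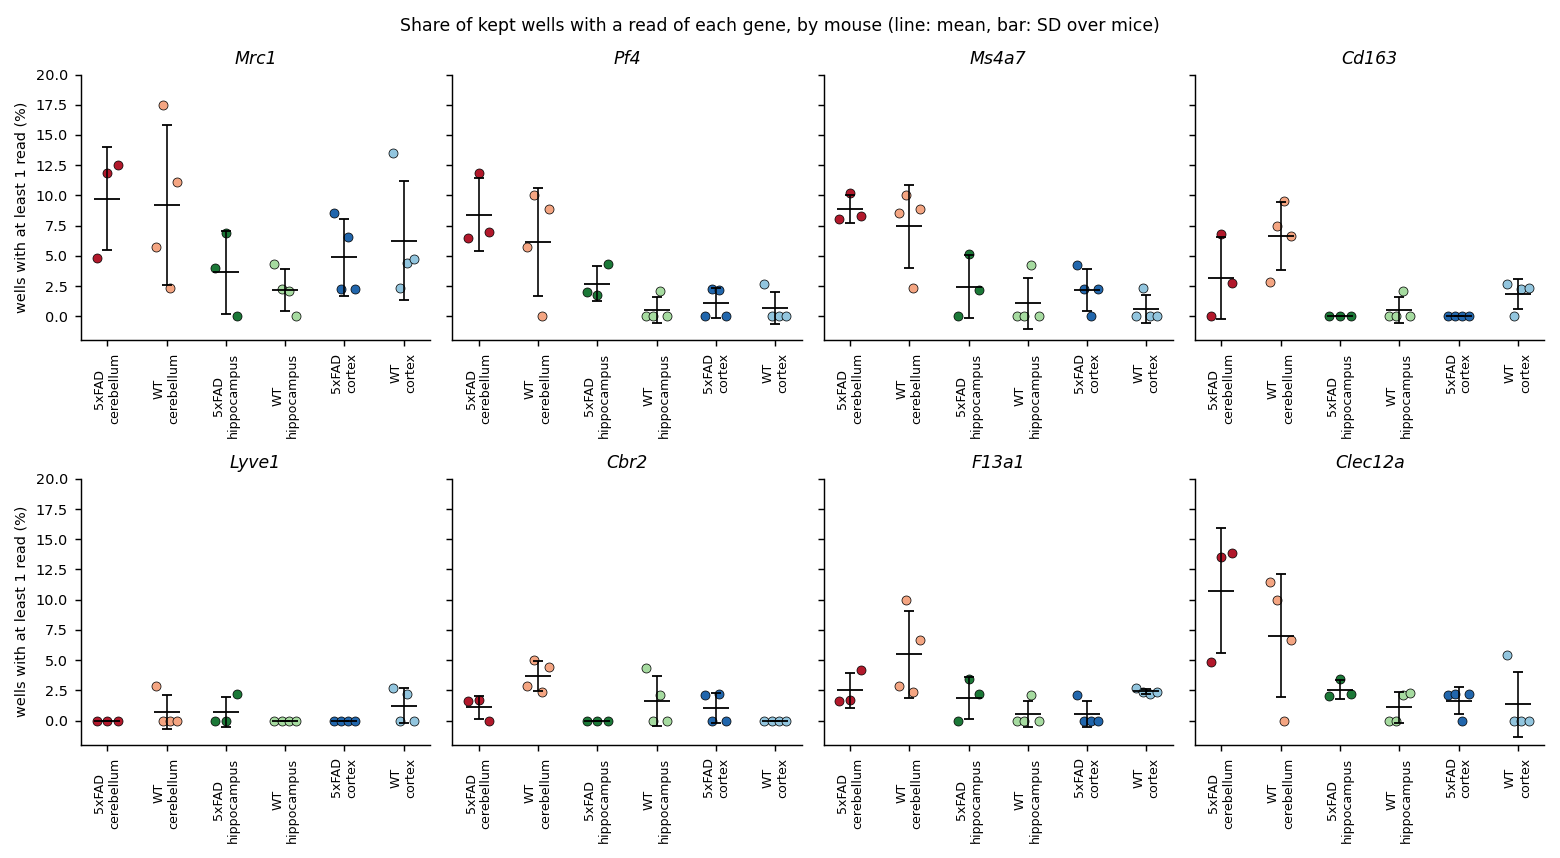
Share of kept wells with at least 1 read of each of the 8 genes, in percent, 1 point per mouse, with the mean as a line and the SD over mice as a bar, by genotype and region. The means of Clec12a, Ms4a7 and Pf4 are highest in the cerebellum groups, while Mrc1 is also found in a few percent of cortical wells.

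Levels were tested with edgeR's quasi-likelihood fit over all 22 sums of a mouse and region, which kept 17358 genes. It tested 7 members; Lyve1 did not pass the filter on low counts. No member passed an adjusted p of 0.05 in the test for any difference among the 6 groups, where 1.45% of all genes did. At an unadjusted p under 0.05, 5 of 7 members passed that test against 14.6% of all genes. Other tools called more genes than the 251 of edgeR: DESeq2 889 genes and 1 member, limma on well means 1155 genes and 6 members. The nearest in edgeR were Clec12a, with an adjusted p of 0.0558, and Ms4a7, with an adjusted p of 0.0781, followed by Cbr2 (0.122), Cd163 (0.217), F13a1 (0.291), Mrc1 (0.390) and Pf4 (0.582). Without WT hippocampus mouse 3, edgeR called Clec12a (adjusted p = 0.0315), Ms4a7 (0.0150) and Cd163 (0.0430). With no filter on low counts, edgeR called all 8, among 3500 genes called. The 8 then included Lyve1, with 595 of its 627 reads in 1 well. Clec12a was also called without WT cortex mouse 1 (0.00375), WT cortex mouse 2 (0.0480) or WT cerebellum mouse 3 (0.0210), and Ms4a7 without WT cortex mouse 2 (0.0327). With 1 mouse left out at a time, 193 to 240 of all genes were called in this test.

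The region comparison within 5xFAD, in which both groups lay on the same plate, had the clearest separation. All 3 cerebella were above all 3 hippocampi for Mrc1, Clec12a, Ms4a7, Pf4 and F13a1, 5 of the 7 members tested, where 7.72% of all genes had mice that did not overlap in that direction. The 5 genes are not separate observations. In 5xFAD cerebellum the same 13 wells with at least 4 members held 61.0% (Clec12a) to 100% (F13a1) of the reads of each. Over 5xFAD hippocampus the 5 genes had 11 (Ms4a7) to 106 (Mrc1) reads, so higher counts elsewhere let them into the test. The log2 fold change of cerebellum over hippocampus was 6.58 ± 2.41 (SE) for Mrc1 (edgeR adjusted p = 0.626), 7.77 ± 2.62 for Clec12a (0.567), 8.39 ± 2.70 for Ms4a7 (0.515), 4.49 ± 2.85 for Pf4 (0.712) and 4.37 ± 2.42 for F13a1 (0.642). These large folds with wide errors did not pass, and 0.219% of all genes did. At an unadjusted p under 0.05, 5 members (Mrc1, Clec12a, Ms4a7, Cd163 and Cbr2) passed against 7.79% of all genes. DESeq2 called 331 genes and 1 member, Cd163, at a log2 fold change of 39.6 against 0 reads in 5xFAD hippocampus. Limma on well means called 2 members, Ms4a7 and Clec12a. Its count of all genes there is not given here, so no weight is put on these 2. Against a floor of 3 reads over the hippocampal group, which had 0, Cd163 was at least 188-fold and Cbr2 at least 192-fold higher in cerebellum, each with 1 of the 3 cerebella at 0. Monocyte markers moved with this comparison. The summed level of 9 monocyte genes ran from 54.9 to 2346 CPM in 5xFAD cerebellum and from 3.41 to 10.4 CPM in 5xFAD hippocampus. The sums of 9 neutrophil genes overlapped between the regions. They were 474 to 18563 CPM in 5xFAD cerebellum and 701 to 855 CPM in 5xFAD hippocampus, so both the lowest and the highest mouse were cerebella. The part of the wells with several neutrophil or monocyte genes in both sums was not tested. Leaving out the 10 wells with at least 3 markers of another cell type, 6 of them in 5xFAD cerebellum, gave a log2 fold change of 6.62 ± 2.46 for Mrc1 and 7.35 ± 2.60 for Clec12a.

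In WT, cerebellum over hippocampus gave a log2 fold change of 5.35 ± 2.01 for Clec12a (adjusted p = 0.320), 4.32 ± 1.93 for Ms4a7 (0.347), 3.37 ± 2.11 for Cbr2 (0.517), 2.90 ± 1.96 for F13a1 (0.563), 2.55 ± 2.25 for Pf4 (0.711), 1.72 ± 1.67 for Mrc1 (0.748) and 1.49 ± 2.13 for Cd163 (0.877) in edgeR's test. None of the 7 passed, beside 0.374% of all genes. At an unadjusted p under 0.05 there were 2 members, Clec12a and Ms4a7, against 13.7% of all genes. DESeq2 called 678 genes and no member, and limma on well means 311 genes and 4 members. For no member did the mice separate, where 2.67% of all genes were higher in cerebellum without overlap. The summed monocyte genes ran from 36.5 to 412 CPM in WT cerebellum and from 2.20 to 17.9 CPM in WT hippocampus, and their part was not tested. Hippocampus mouse 3 decided these values. Without it the fold for Mrc1 was 3.95 (adjusted p = 0.444), and for Cd163, F13a1, Ms4a7 and Pf4 the other hippocampi had 0 reads. Lyve1 was at least 231-fold higher in cerebellum against the floor of 3 reads, all from 1 well.

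Between genotypes no member was called by edgeR in any region. In cerebellum Mrc1 differed by 0.41 ± 1.74 on the log2 scale, 5xFAD over WT (adjusted p = 1), and the other 6 members by between -2.25 and 1.21, all smaller than or close to their own errors, with 0 members at an unadjusted p under 0.05 against 8.92% of all genes. There DESeq2 and limma called 0 members, and edgeR called 0.0461% of all genes. In hippocampus Mrc1 was at -4.45 ± 2.15 (adjusted p = 0.382), and 1.01% of all genes were called. At an unadjusted p under 0.05 there were 2 members, Cd163 and Cbr2, both at 0 reads in 5xFAD hippocampus, against 13.1% of all genes. DESeq2 called 718 genes and 1 member, Cd163, at a log2 fold change of -39.8. All 651 WT hippocampal reads of Cd163 came from 1 well of mouse 3. Limma called 499 genes and no member. Without WT hippocampus mouse 3 the Mrc1 value was -2.22 ± 1.95. Limma gave 0.068, a difference in mean log2(CPM + 1) per well and not a fold change of the sums. In cortex Mrc1 was at -1.80 ± 1.68 (adjusted p = 0.790), 0.294% of all genes were called, and 3 members, Clec12a, F13a1 and Cd163, had an unadjusted p under 0.05 against 11.7% of all genes. DESeq2 called 470 genes and 1 member, Cd163, at a log2 fold change of -18.6 with 0 reads in 5xFAD cortex. Limma called 476 genes and no member. Without WT cortex mouse 1, the Mrc1 value in cortex turned to 1.42, so its sign rested on that mouse. WT hippocampus and WT cortex, both on the same plate, had 0 genes of 17358 called by edgeR; 10.5% of genes and 1 member, Cbr2, had an unadjusted p under 0.05, and Mrc1 differed by -0.23 ± 1.63.

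The members shared wells. Of 1041 wells, 917 had no member, 85 had 1, 8 had 2 and 6 had 3, while 13 had 4, 6 had 5, 3 had 6, 2 had 7 and 1 well, of WT cerebellum mouse 1, had all 8. Mrc1 and Pf4 were together in 24 wells, which was 38.1% of Mrc1 wells and 70.6% of Pf4 wells. Mrc1 and Clec12a were together in 26 wells, 41.3% and 60.5% of the wells of each, and Mrc1 and Ms4a7 in 23, 36.5% and 57.5%. Mrc1 was found in the most wells, so each overlap was the smaller share of its own wells. Over all 1041 wells, Pearson correlations of log2(CPM + 1) between members ran from 0.08 for Mrc1 and Lyve1 to 0.66 for Mrc1 and Pf4; they describe sparse counts that share wells and depth.

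**Figure D3:**
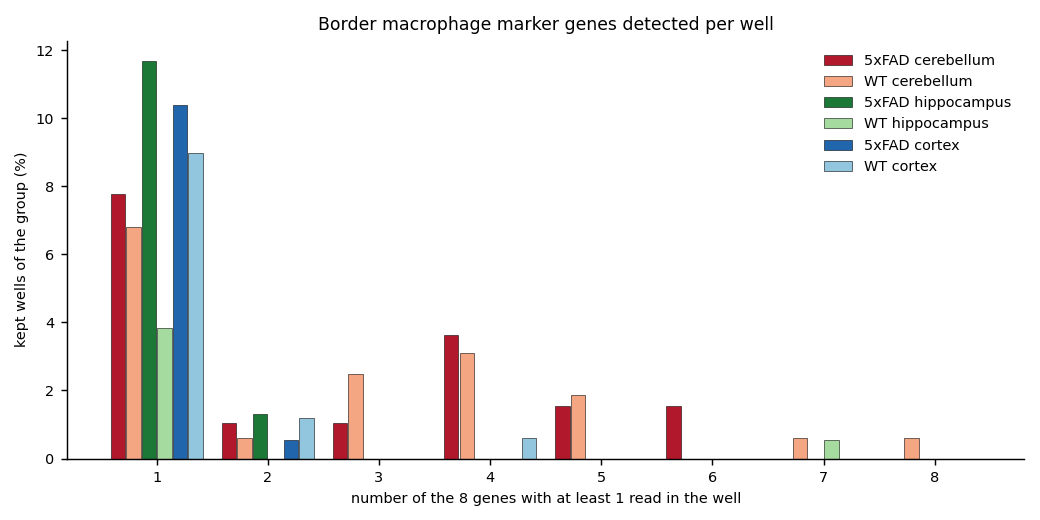
Percent of the kept wells of each genotype and region, as bars, by the number of the 8 genes with at least 1 read in the well, from 1 to 8. Wells with 4 to 8 genes are nearly all from cerebellum, while wells with 1 gene occur in every group.

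The 25 wells with at least 4 of the 8 genes are called marker-rich here; this is a range set on the members, not a cell type. Of these, 23 were cerebellar: 13 of 5xFAD cerebellum, by mouse 2, 6 and 5, and 10 of WT cerebellum, by mouse 1, 5, 0 and 4. The other 2 were a well of WT hippocampus mouse 3 and a well of WT cortex mouse 1, the mice that stood out above. The share was 6.78 ± 3.47% of wells in 5xFAD cerebellum (SD, n = 3 mice) and 6.06 ± 5.67% in WT cerebellum (n = 4), against 0 of 154 wells in 5xFAD hippocampus and 0 of 183 in 5xFAD cortex, counts that allow up to 1.95% and 1.64%. WT hippocampus and WT cortex had 0.532 ± 1.06% and 0.676 ± 1.35%. Thinned to 50000 reads per well, the shares were 6.95% (13 of 187 wells) and 6.57% (9 of 137) in the 5xFAD and WT cerebellum, close to the shares at full depth. With 3 or more in place of 4, 6 further wells were counted, all cerebellar.

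Most reads of each member came from these 25 wells: 97.1% for F13a1, 94.9% for Lyve1, 93.8% for Cbr2, 89.7% for Cd163, 86.6% for Pf4, 82.3% for Mrc1, 69.4% for Ms4a7 and 65.9% for Clec12a. The rule that picked the wells makes such shares high, and they are given as a description. Within them Mrc1 and Pf4 each had a read in 24, Clec12a in 21, Ms4a7 in 20, F13a1 in 15, Cd163 in 11, Cbr2 in 6 and Lyve1 in 1. F13a1 was found in 5 of 13 marker-rich wells of 5xFAD cerebellum and 8 of 10 of WT cerebellum, a difference that was not tested. Among the marker-rich wells with an Mrc1 read, its median level was 2275 CPM in 5xFAD cerebellum (13 of 13 wells) and 1564 CPM in WT cerebellum (9 of 10 wells). Per kilobase of exon, so that genes can be set side by side, the median level among wells with at least 10 reads was 588 CPM per kilobase for Cbr2, 358 for Lyve1 (2 wells), 311 for Pf4, 269.8 for Mrc1, 179.7 for Clec12a, 175 for Ms4a7, 107 for F13a1 and 67.2 for Cd163. Cbr2 was thus rare but, where found, was the highest per length, and Cd163 was the lowest.

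Other genes of the marker-rich wells were set against the 917 wells with no member. Of those 917, 297 were cerebellar, so region and genotype are mixed into the contrast. P2ry12 had a median of 23.9 CPM in marker-rich and 5969 CPM in no-member wells, Tmem119 445 and 3876 CPM, and Cx3cr1, the fractalkine receptor, 2565 and 5727 CPM. Within 5xFAD cerebellum the P2ry12 medians were 236 and 5132 CPM, and within WT cerebellum 19.4 and 3806 CPM. Sall1 had no read in any of the 25 wells, against a read in 88.0% of the 917. Of 15 microglia genes, 8 reached 10 reads in at least 50% of marker-rich wells and 14 did in no-member wells. Of the 15, 5 reached 10 reads in no marker-rich well, against 0 in the no-member wells. The share of wells at 10 reads was lower in marker-rich wells for 12 of the 15 and higher for 3. The class II antigen presentation genes went the other way: H2-Aa had a median of 22503 CPM in marker-rich wells and 0 in no-member wells, Cd74, the invariant chain, 37843 CPM and 0, and all 7 listed genes reached 10 reads in at least 50% of marker-rich wells against 1 in no-member wells. Apoe, the lipid carrier, had medians of 39929 and 4.94 CPM. No statistical test was made, since wells are not replicates and the members chose them.

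**Figure D4:**
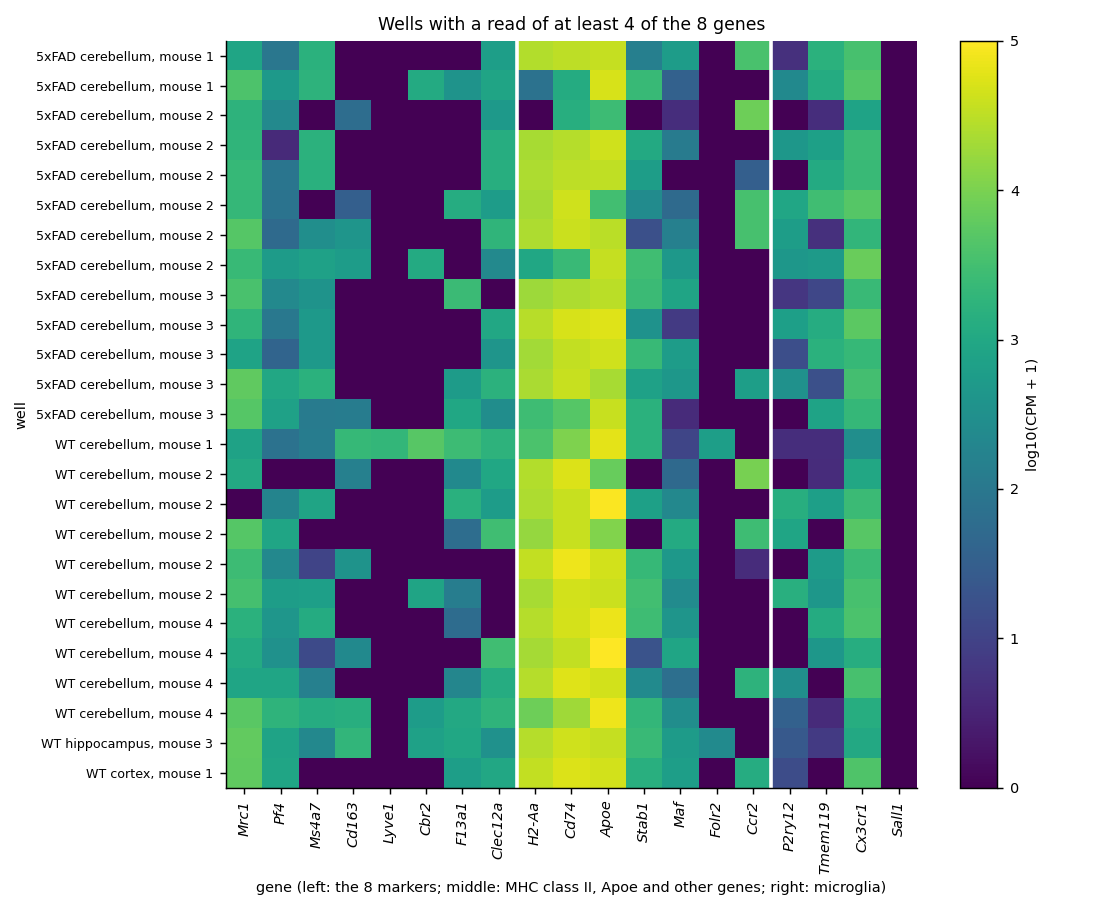
Level in log10(CPM + 1), as colour, of the 8 genes (left), class II, Apoe and other genes (middle) and microglia genes (right) in each of the 25 wells with at least 4 of the 8 genes, 1 row per well, named by group and mouse. H2-Aa, Cd74 and Apoe are high in nearly all rows, P2ry12 is low or at 0 in many, and Sall1 is at 0 in all 25.

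A list of 28 other border macrophage genes was compared in the same way. In marker-rich wells 15 of the 28 reached 10 reads in at least 50% of wells, against 3 in no-member wells; the share of wells was higher in marker-rich wells for 23 and lower for 4. Ms4a6c was found at 10 reads in 25 of 25 marker-rich wells and 9.27% of the others, Dab2, an endocytic adaptor, in 22 and 6.98%, and Tgfbi, a secreted matrix protein, in 20 and 13.1%. Lyz2, lysozyme, had medians of 21278 and 405 CPM. Stab1, a scavenger receptor, had 1093 CPM in marker-rich and 135 CPM in no-member wells, and Maf, a transcription factor of macrophages, 260 and 49.1 CPM, so both were also found in wells without members. Folr2, a folate receptor often used as a border marker, reached 10 reads in 2 of the 25. Cd209f, Cd209b, Cd209g, Fcna and Ednrb reached 10 reads in no marker-rich well. Of the lists for other cells, Ccr2, a monocyte chemokine receptor, reached 10 reads in 9 of 25 marker-rich wells against 2.07% of no-member wells, and 7 of 9 monocyte genes, Ly6c2 among them, reached 10 reads in none of the 25. The lists for T and NK cells, endothelium, vessel wall, neurons, red blood cells and platelets held no gene with 10 reads in any of these wells. Of the other lists, genes reaching 10 reads in at least 1 of the 25 numbered 2 of 9 for neutrophils, 2 of 8 for dendritic cells, 2 of 6 for B cells, 2 of 6 for astrocytes and 3 of 6 for oligodendrocytes. Csf3r of the neutrophil and Ighm of the B cell list did so in 13 and 21 of the 25, against 81.0% and 71.2% of no-member wells. Marker-rich wells had a median of 310458 reads and 2641 genes, against 255272 reads and 2593 genes in no-member wells, and mitochondrial shares of 2.30% and 1.66%; wells with RNA of more than 1 cell were not searched for.

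In summed RNA, 24 of the 28 other border genes were tested and few passed. Tgfbi was higher in 5xFAD cerebellum than in 5xFAD hippocampus, at 253 ± 58.1 against 47.1 ± 36.4 CPM (log2 fold change 2.29 ± 0.47, edgeR adjusted p = 0.0402), and no other gene of the list passed there; the median of the list was 0.74 against -0.03 for all genes. In WT, cerebellum over hippocampus, none of the 24 passed, with a median of 1.44 against 0.08. Stab1 was lower in 5xFAD than in WT hippocampus, at 177 ± 54.8 against 422 ± 43.2 CPM (log2 fold change -1.08 ± 0.21, edgeR adjusted p = 0.00647), and none passed between genotypes in cortex or cerebellum. P2ry12 was lower in WT cerebellum than in WT hippocampus, at 4151 ± 420.3 against 9595 ± 886 CPM (log2 fold change -1.25 ± 0.08, edgeR adjusted p = 5.66e-09), with 9 of 15 microglia genes lower; the part of marker-rich wells in this difference was not tested.

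Wells with several members had less P2ry12 than wells with 1 or none. The median of P2ry12 was 5969 CPM with no member, 2774 CPM with 1, 194 CPM with 2 and 157 CPM with 3. It was 5.24 CPM with 4, 476 CPM with 5 and 236 CPM with 6, and the 3 wells with 7 or 8 had a median of 29.6 CPM with 7 and 3.42 CPM with 8, so it did not fall further with each added member. H2-Aa reached 10 reads in 1 of 85 wells with 1 member, in 2 of 8 with 2, in 6 of 6 with 3, in 12 of 13 with 4 and in all 12 with 5 or more. Wells just inside and just outside the limit of 4 were therefore alike in H2-Aa, and the median summed level of the members was 3316 CPM with 3 and 3253 CPM with 4.

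**Figure D5:**
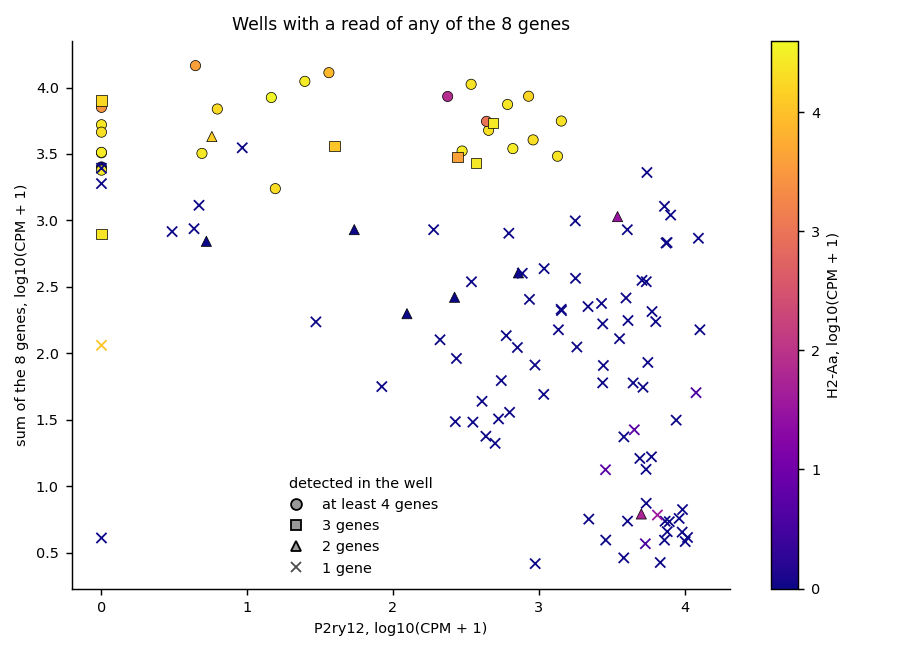
Summed level of the 8 genes against the level of P2ry12, both in log10(CPM + 1), in each well with a read of at least 1 of the 8; the symbol gives the number of genes with a read and the colour the level of H2-Aa. Wells with 3 or more genes lie high for the sum, low for P2ry12 and mostly high for H2-Aa, while most wells with 1 gene have P2ry12 and no H2-Aa.

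Mrc1 was also read outside the marker-rich wells, in 39 of 1016 wells, or 3.84%, at a median of 148 CPM. By group these were 6 wells of 5xFAD cerebellum, 6 of WT cerebellum, 6 of 5xFAD hippocampus, 3 of WT hippocampus, 9 of 5xFAD cortex and 9 of WT cortex. Such wells were thus spread over all groups, unlike the marker-rich wells. In 14 wells Mrc1 had at least 10 reads with no other member at 10 reads, 7 of them in 5xFAD cortex; they held 25 to 459 Mrc1 reads. Their median P2ry12 level was 5494 CPM and their median H2-Aa level 0, values near those of wells with no member.

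The genes most like the members over the 1041 wells, by the Pearson correlation with the mean log2(CPM + 1) of the 8, were H2-Eb1 (0.746), Mndal (0.745), H2-Aa (0.734), Cd93 (0.677), Ifi203 (0.659), Klra2 (0.628), Ms4a4a (0.617), Mgl2 (0.612), H2-Ab1 (0.609), Plbd1 (0.594), Tlr8 (0.592) and Cybb (0.575), of 13440 genes with reads in at least 10 wells. The 3 class II genes among them present antigen, and Cybb encodes the catalytic subunit of the phagocyte oxidase. Each member taken alone had its own nearest gene: Mndal for Mrc1 (0.649) and F13a1 (0.546), H2-Eb1 for Pf4 (0.675) and Ms4a7 (0.651), Plbd1 for Clec12a (0.671), Cd93 for Cbr2 (0.485), Emilin2 for Cd163 (0.482) and Col5a3 for Lyve1 (0.299). Members found in few wells had lower correlations, and wells share library depth.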

How the data were processed

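Counts of reads per gene and well were used as the authors deposited them. The submitters' processing notes name GRCm38, STAR 2.5.2b and featureCounts 1.5.1; annotation and strand setting: not given in the sources used here. In 96 columns the deposited counts were sums: the column of plate column 1 also held wells 10 to 19 of its plate row, and that of plate column 2 wells 20 to 24. Those wells were subtracted, which gave 0 negative values. Wells with 500 genes, 10000 gene reads and no more than 20% mitochondrial reads were kept (1041 of 1140).

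Levels were tested on counts summed per mouse and region (22 sums of 35 to 72 wells) with edgeR 4.0.16 in R 4.3.3, with TMM normalization, filterByExpr and Benjamini-Hochberg adjustment over 17358 genes at 0.05. The standard error of a log2 fold change is its size over the square root of F. CPM is reads of a gene scaled to the reads in all genes. Shares of Mrc1 wells were compared with scipy 1.17.1; no other share was tested. The fit was tested on simulated data. Alternatives were DESeq2 1.42.0, limma 3.58.1 on mean log2(CPM + 1) per well, other filters, thinning, the columns as deposited, a replicate block and leaving out each mouse. Regions of a genotype came from the same mice, and the replicate number was taken for the mouse; labels do not say that replicates were kept apart at every step, so p-values measure the spread between these samples.

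The members and lists were chosen with earlier results of these data known. Named genes were the 8 members, the listed genes that passed a test with Stab1, Maf and Folr2, 5 microglia genes, 1 of which is not reported here, and the 12 non-member genes with the highest correlation; other list genes (class II, Apoe, Lyz2, Dab2, Ms4a6c, Ccr2 and those at 0) were chosen after their values were seen. Gene positions are those of GENCODE vM21.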

Additional observations from a re-analysis of the deposited data

Results flagged for a closer look

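Among 35 sets of 4 mice (a member's CPM, or the share of wells with Mrc1 or with at least 4 members, in a group), 19 had a highest mouse far from the other 3 by Dixon's criterion. In 11 of the 19 the other 3 mice were all at 0, where any read in 1 mouse meets the criterion, so the usual rate of about 1 chance flag in 20 sets does not hold here. The sets are also not independent, since a few wells carry several members.

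WT hippocampus mouse 3 stood apart for Mrc1 at 184.704 CPM (others 0 to 21.3), Pf4 at 23.4219, Ms4a7 at 7.12455, Cd163 at 57.976, F13a1 at 28.142 and Clec12a at 9.88531 CPM, and for marker-rich wells at 2.12766%. WT cortex mouse 1 stood apart for Mrc1 at 232.611 CPM (others 0.124 to 19.2), Pf4 at 34.2333, Cd163 at 4.74, F13a1 at 24.5778 and Clec12a at 38.6222 CPM, and for marker-rich wells at 2.7027%. In WT cortex, Ms4a7 instead stood apart in mouse 2, at 4.20194 CPM. WT cerebellum mouse 1 did so for Cbr2 at 219.699 CPM (others 5.57 to 25.1) and Lyve1 at 89.7806 CPM. 5xFAD cortex mouse 1 stood apart at low levels, with Cbr2 at 3.97836, Ms4a7 at 1.80835 and F13a1 at 0.542504 CPM. Groups of 3 mice were not examined.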

How the results depend on the processing

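With no filter on low counts, genes called were 3500 over the 6 groups, 190, 327 and 98 between genotypes in cortex, hippocampus and cerebellum, 233 and 107 for cerebellum over hippocampus in WT and 5xFAD, and 43 for hippocampus over cortex in WT; members called were 8, 5, 4, 0, 4, 5 and 1. DESeq2 called 889, 470, 718, 312, 678, 331 and 283 genes, in the same order, and 1 member over the groups, in cortex, in hippocampus and in the 5xFAD region comparison. Limma on well means called 1155 genes over the groups, 476 in cortex, 499 in hippocampus, 311 for the WT regions and 22 for WT hippocampus over cortex, and 6, 4 and 2 members over the groups and for the WT and 5xFAD cerebellum over hippocampus. The stricter cell filter called 2 members over the groups. Its count of all genes there, and that of limma for the 5xFAD regions, are not given here. With only the groups compared, genes called were 25 in cortex, 0 in cerebellum, 13 in the WT and 5 in the 5xFAD region comparison. Without plate columns 1 and 2 they were 3 in cerebellum and 40 in the WT region comparison, and with columns as deposited 0 in cerebellum and 0 in the 5xFAD region comparison. With mouse as a replicate block, WT hippocampus over cortex had 5 genes called, and no member's call changed; correlations of same-numbered sums ran from -0.0368 to 0.0343 over 21 pairs, 0 of them above 0.1.

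The Mrc1 log2 fold change turned to 0.10 (as deposited) between genotypes in hippocampus, and to 1.28 (as deposited) and 0.89 (replicate block) for WT hippocampus over cortex. Limma gave 0.068 between genotypes in hippocampus, on another measure, the difference in mean log2(CPM + 1) per well. The Mrc1 share difference, in percentage points, turned in cortex to 2.54 (at least 10 reads) and 2.00 (thinned), in hippocampus to -0.96, -1.69 (thinned) and -2.27 (stricter), in cerebellum to -1.31 (thinned), -1.59 (without columns 1 and 2) and -5.62 (as deposited), to -3.30 in the 5xFAD region comparison (as deposited) and to 0.40 for WT hippocampus over cortex (at least 10 reads). Marker-rich wells were 7.36% in 5xFAD hippocampus as deposited, where summed columns count several wells as 1, and 3.11% in 5xFAD cerebellum at 5 or more members. The cause was not tested for the others. Leaving out 1 mouse, the share difference ran from -1.71 to 3.33 in cerebellum, -2.70 to 1.03 in cortex and -0.174 to 3.27 in hippocampus; genes called ran from 1 to 10, 29 to 61 and 113 to 200 there, 7 to 41 and 39 to 76 in the 5xFAD and WT region comparisons and 0 to 2 for WT hippocampus over cortex; the Mrc1 log2 fold change ran from -0.0072 to 0.95 in cerebellum, -2.36 to 1.42 in cortex, -6.99 to -2.22 in hippocampus and -2.46 to 2.99 for WT hippocampus over cortex; members called over the groups ran from 0 to 3. Genes called over the groups ran from 193 to 240 when 1 mouse was left out. Depth limits shares of wells with 1 to 9 reads most, and few mice limit every comparison.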
